A study of Mus musculus with 15 samples.

Results

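The MHC class I and immunoproteasome genes H2-K1, H2-D1, B2m, Tap1, Tap2, Tapbp, Psmb8, Psmb9, Psmb10 and Nlrc5 were followed across mouse bone marrow-derived macrophages (BMDMs) given IL-4 or IL-13, alone or with IL-6. The 10 genes were taken by symbol from the deposited table of 53465 Ensembl gene identifiers, of which 53274 could be paired with a symbol. Each of the 10 was found, and all 10 were among the 13938 genes that passed the filter on low counts. The study sequenced RNA from 5 groups of 3 libraries each, to view how IL-6 acts on the macrophage response to IL-4. Per the labels and methods, bone marrow was cultured for 7 days with 20 ng/ml M-CSF, the growth factor that drives macrophage differentiation. The methods give an age of 8 to 12 weeks for the mice used for BMDMs. The control group received no cytokine beyond this, and the other groups were cultured for 24 h with IL-4, IL-4/IL-6, IL-13 or IL-13/IL-6. The methods give 10 ng/ml IL-4 and 40 ng/ml IL-6 for RNA sequencing. Other macrophage cultures of the study had 40 ng/ml IL-13 and 40 ng/ml IL-6, and the doses in the sequenced IL-13 libraries are not stated. IL-4 and IL-13 are therefore set side by side, and their effects over control were not tested against each other. There was no group with IL-6 alone. The study calls the libraries of a group biological replicates, and its methods report 3 or more independent experiments for all data. It does not say whether the libraries came from separate mice or from separate cultures, so p-values measure the spread between these libraries.

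MHC class I molecules show fragments of a cell's own proteins to CD8 T cells. The fragments are cut by the proteasome, carried into the endoplasmic reticulum by the TAP transporter, and loaded onto a heavy chain that is held by beta-2-microglobulin. In cells exposed to interferon, the catalytic subunits of the standard proteasome are exchanged for the inducible subunits of the immunoproteasome, and macrophages are among the cells that carry both forms.

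Of the 10 genes, 7 lie on chromosome 17, in and beside the H2 complex, the mouse MHC (build GRCm38, GENCODE M21 models). The heavy chain genes are H2-K1 (chr17:33996017-34000347, minus strand, ENSMUSG00000061232) and H2-D1 (chr17:35262730-35267499, plus strand, ENSMUSG00000073411), and the light chain gene B2m lies on chromosome 2 (chr2:122147686-122153083, plus strand, ENSMUSG00000060802). The genes Psmb9 (chr17:34181987-34187764, minus strand, ENSMUSG00000096727), Tap1 (chr17:34187553-34197225, plus strand, ENSMUSG00000037321), Psmb8 (chr17:34197721-34201454, plus strand, ENSMUSG00000024338) and Tap2 (chr17:34203527-34216321, plus strand, ENSMUSG00000024339) follow each other directly, and Tapbp (chr17:33915899-33929292, plus strand, ENSMUSG00000024308) lies near H2-K1. Psmb10 (chr8:105935735-105938444, minus strand, ENSMUSG00000031897) and Nlrc5 (chr8:94434356-94527272, plus strand, ENSMUSG00000074151) lie on chromosome 8. Psmb9 and Tap1 are read away from each other, and their gene models share 212 exonic bases on opposite strands.

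The sequence in front of the heavy chain genes, B2m, Tap1 and Psmb9 is shown. Each of these genes has matches there to the NF-kB-like, X2 and Y motifs defined below. The arrangement is not shared by all. The X2 match lies close to a Y match in the heavy chains and B2m, and far from it in Tap1 and Psmb9. An IRF-like or ISRE-like match occurs in the heavy chains and B2m, and not in Tap1 or Psmb9. Each entry gives bases before the RefSeq start site (GRCm38.p6), 5' to 3' on the strand of the gene, and for Psmb9 and Tap1 the 225 bases between both start sites on the plus strand. Capitals mark matches, on either strand, to 5 motifs. They are the NF-kB-like motif (GGG, then 5 bases of any kind, then CCC), the IRF-like motif GAANNGAAA, the ISRE-like motif (GAAA, then 2 bases of any kind, then GAAA), the CRE-like X2 motif TGACG, and the Y motif CCAAT. The IRF-like and ISRE-like motifs can overlap each other.
H2-K1, chr17:34000348-34000597, minus strand: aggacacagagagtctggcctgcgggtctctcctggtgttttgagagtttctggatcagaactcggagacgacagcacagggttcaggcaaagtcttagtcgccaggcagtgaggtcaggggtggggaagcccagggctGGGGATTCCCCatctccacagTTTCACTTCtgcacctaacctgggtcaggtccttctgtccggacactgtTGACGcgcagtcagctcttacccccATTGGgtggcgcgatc
H2-D1, chr17:35262844-35263093, plus strand: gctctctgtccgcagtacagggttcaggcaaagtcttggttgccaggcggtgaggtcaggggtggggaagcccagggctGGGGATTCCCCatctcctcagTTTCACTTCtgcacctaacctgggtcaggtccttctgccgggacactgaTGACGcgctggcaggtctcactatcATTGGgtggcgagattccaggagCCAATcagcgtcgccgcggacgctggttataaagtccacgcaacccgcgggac
B2m, chr2:122147437-122147686, plus strand: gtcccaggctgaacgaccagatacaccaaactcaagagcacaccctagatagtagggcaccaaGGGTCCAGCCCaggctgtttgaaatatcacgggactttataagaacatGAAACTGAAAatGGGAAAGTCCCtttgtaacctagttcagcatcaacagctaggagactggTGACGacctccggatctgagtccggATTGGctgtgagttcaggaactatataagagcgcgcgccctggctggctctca
Psmb9 and Tap1, chr17:34187331-34187555, plus strand: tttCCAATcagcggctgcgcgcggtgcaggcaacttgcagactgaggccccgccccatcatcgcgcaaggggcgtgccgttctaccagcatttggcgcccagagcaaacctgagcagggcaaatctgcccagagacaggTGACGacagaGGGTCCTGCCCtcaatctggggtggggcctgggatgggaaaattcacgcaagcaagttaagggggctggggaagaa

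RefSeq start windows matched 8 of the 10 genes, and not Tap2 or Nlrc5. Among all 27025 windows of 250 bases in the table, 12.1% held the NF-kB-like motif, 6.34% the IRF-like, 3.04% the ISRE-like, 17.9% the X2 and 34.5% the Y motif. The NF-kB-like, X2 and Y motifs occurred together in 0.966% of all windows and in 5 of the 8 windows of these genes, those of H2-K1, H2-D1, B2m, Tap1 and Psmb9. The 3 motifs are those that these windows share, so the count is a description without a test, and it ignores order and spacing. X2 and a Y match began 41 and 16 bases before the start in H2-K1, 101 and 76 in H2-D1, and 78 and 53 in B2m. In Tap1 they began at 86 and 222 and in Psmb9 at 144 and 8, with no IRF-like or ISRE-like match in either. The windows of Tap1 and Psmb9 are not independent, since 225 of their 250 bases are the same stretch read on both strands. H2-K1 and H2-D1 were identical at 170 of the aligned bases and differed at 20 (89.5% identity), so these windows are not independent either. STAT-like letters (TTC and GAA with 3 or 4 bases between them), found in 7.18% and 5.86% of all windows, matched once in Psmb8 and once in Psmb10, respectively, and not in the other 6 windows. The RefSeq starts of H2-D1, Tapbp, Psmb8, Psmb9 and Psmb10 used here lie inside their longer GENCODE models. Their windows thus lie within the models, that of Psmb10 only in part, and the bases shown between Psmb9 and Tap1 lie within the Psmb9 model. H2-K1 has 2 windows in the table, of which the first is shown. These matches describe letters and were not tied to binding.

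Library totals ran from 17001352 to 18918686 counts. The biological coefficient of variation, the spread between libraries beyond counting error, was 4.48% in control, 4.54% in IL-4, 14.8% in IL-4/IL-6, 10.9% in IL-13 and 7.38% in IL-13/IL-6. The wider spread came with 2 libraries, IL-4/IL-6 replicate 2 and IL-13 replicate 1. IL-4/IL-6 replicate 2 was the highest of its group for 9 of the 10 genes and the lowest for Nlrc5. IL-13 replicate 1 was the highest of its group for 7 of the 10 and the lowest for Nlrc5, Tap1 and Tap2. Values without both are given beside the results or together further on. All 8 macrophage markers were at or above 1 CPM in every group, and their summed normalized CPM was 18994 to 21173 in control, 14652 to 15144 with IL-4, 11265 to 13188 with IL-4/IL-6, 17185 to 19973 with IL-13 and 14111 to 15066 with IL-13/IL-6. Most of that sum is Lyz2, the lysozyme gene, whose mean was 14924 in control and 6852 with IL-4/IL-6, and the efferocytosis receptor gene Mertk fell from 143 in control to 8.27 with IL-4. The others moved both ways: Csf1r was at 2195 in control and 1581 with IL-4/IL-6, Adgre1 at 844 in control and 1454 with IL-13/IL-6, and Fcgr1 at 155 in control, 101 with IL-4 and 479 with IL-13/IL-6. When IL-6 was added to IL-4, 3 of the 8 rose and 4 fell, and their part in the results was not tested. In control, 10 of 11 granulocyte and precursor markers were also above 1 CPM, with a sum of 498 to 589 normalized CPM against 1.64 to 2.89 over all cytokine-treated libraries. B cell markers (5 of 7 above 1 CPM in control) summed to 11.3 to 12.7 against 0.651 to 1.71, T and NK cell markers (1 of 9, with Cd3e and Gzmb at 0) to 24.5 to 30.2 against 0 to 1.12, and stromal markers (2 of 7) to 16.0 to 21.4 against 0 to 0.609. Camp, Ltf, Ly6g and Retnlg, which define granulocytes, were at 0 in the IL-4 group. Their part in the comparisons with control was not tested, and in such bulk samples fewer cells of a type and less RNA per cell cannot be told apart. Between IL-4 and IL-4/IL-6, or IL-13 and IL-13/IL-6, these 4 lists stayed at the low levels just given, while the 9 dendritic cell markers (2 of 9 above 1 CPM in each cytokine-treated group, with Siglech at 0) summed to 133 to 139 normalized CPM with IL-4, 149.6 to 221 with IL-4/IL-6, 43.8 to 48.3 with IL-13, 76.2 to 94.9 with IL-13/IL-6 and 45.7 to 48.4 in control. In the cytokine-treated groups nearly all of that sum is Clec10a (116 with IL-4, 170.2 with IL-4/IL-6, against 17.1 in control) and Batf3, whereas in control Ccr7 (8.42), Flt3 (6.38), Siglech (5.48) and Clec9a (3.60) add to it, and over control with IL-4, 2 of the 8 dendritic markers tested rose while 5 fell, Flt3 to 0.

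Per length, as FPKM (fragment counts scaled to gene length and library size), B2m was the most abundant of the 10 genes in control at 1954 ± 101 (SD, n = 3), rank 14 of the 13938 genes. H2-D1 followed at 819 ± 26.8 and H2-K1 at 346 ± 20.5, then the loading factor Tapbp at 74.3 ± 3.50 and Psmb10 at 41.9 ± 2.77. Tap1 (9.81 ± 0.181), Psmb8 (8.68 ± 0.666), Psmb9 (8.13 ± 0.868), Tap2 (7.63 ± 0.286) and Nlrc5 (5.15 ± 0.295) came last. Within this order, Psmb8 did not differ from Psmb9, nor Psmb9 from Tap2, beyond their SDs. The order of the first 3 genes was the same in all 5 groups, and Nlrc5 was the lowest in every group except IL-13/IL-6, where Tap2 (6.13 ± 0.921) and Nlrc5 (6.26 ± 1.16) were within their SDs.

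The first question is what IL-4 or IL-13 alone did to these genes, and IL-6 is then added to each. With IL-4, 6 of the 10 genes rose and 1 fell (32.1% and 35.9% of all genes tested did so), and with IL-13 the same 6 genes rose and none fell (29.0% and 31.1% of all genes). All 3 immunoproteasome subunits, H2-K1, B2m and Tap1 were the genes that rose in both. Adding IL-6 to IL-4 lowered 7 genes and raised none (18.7% and 20.7% of all genes), and adding it to IL-13 lowered 3 and raised none (13.5% and 12.1%). A gene was called where the quasi-likelihood F-test of edgeR gave it an adjusted p under 0.05 (Benjamini-Hochberg, over all 13938 genes). DESeq2 gave the same counts in each of these comparisons, the counts of 0 included. At an unadjusted p under 0.05 the counts of 0 stayed at 0 except for IL-13/IL-6 over IL-13, where Nlrc5 reached it in the upward direction. The comparisons share libraries (control in the first 2, IL-4 or IL-13 between the first and second steps), so their values are given side by side and are not independent.

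**Figure D1:**
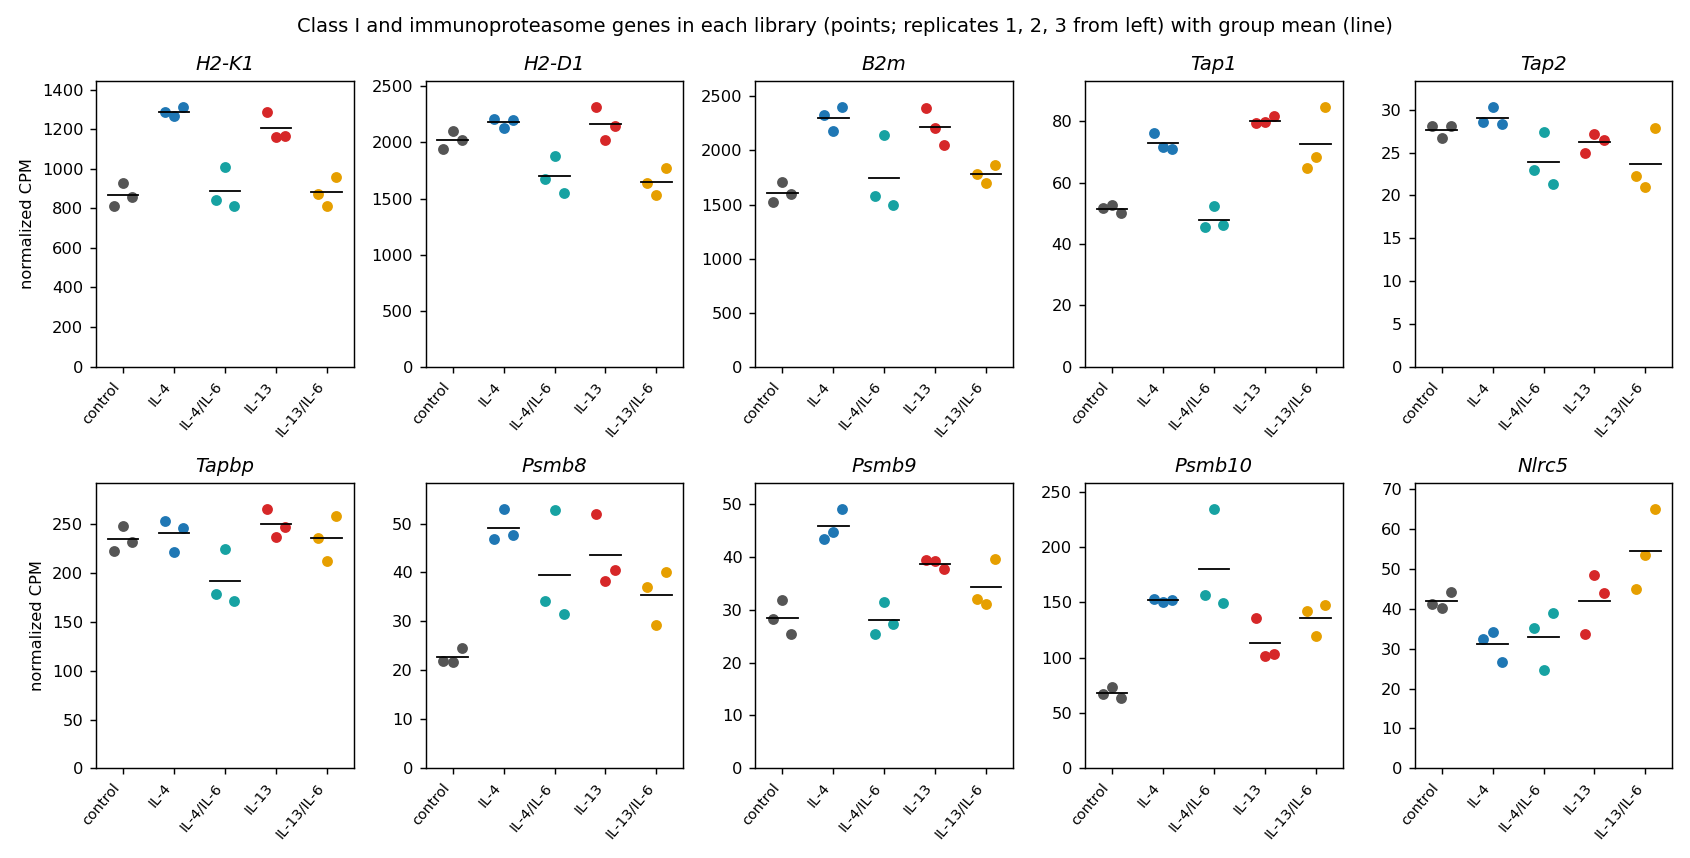
Normalized CPM (y axis, from 0, counts scaled to library size by TMM factors) of the 10 genes in each of the 15 libraries, by group on the x axis; points are replicates 1, 2 and 3 from left to right and the line is the group mean. H2-K1 and B2m are high in the 6 libraries with IL-4 or IL-13 alone, Psmb10 is lowest in control, and the middle point of IL-4/IL-6 lies above its 2 partners in 9 panels.

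Levels are given from here on as normalized CPM, the counts of a gene scaled to library size with TMM factors (trimmed mean of M values), for replicates 1, 2 and 3 in this order. The heavy chain H2-K1 was at 811, 927 and 859 normalized CPM in control, at 1285, 1267 and 1312 with IL-4, at 841, 1011 and 809.8 with IL-4/IL-6, at 1287, 1162 and 1168 with IL-13, and at 871, 814 and 957 with IL-13/IL-6. All 6 libraries with IL-4 or IL-13 alone lay above all control libraries, and both groups with IL-6 overlapped control. H2-K1 rose 1.49-fold with IL-4 (log2 fold change 0.57 ± 0.08 SE, edgeR adjusted p = 1.23e-05) and 1.39-fold with IL-13 (0.48 ± 0.08, adjusted p = 0.000101). With IL-6 it fell to 0.689 of the IL-4 level (log2 -0.54 ± 0.08, edgeR adjusted p = 5.17e-05) and to 0.73 of the IL-13 level (-0.45 ± 0.08, adjusted p = 0.000485). Against control neither IL-4/IL-6 (0.04 ± 0.08) nor IL-13/IL-6 (0.02 ± 0.08) passed the test.

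H2-D1, the second classical heavy chain gene, was at 1943, 2107 and 2018 normalized CPM in control, 2211, 2134 and 2205 with IL-4, 1673, 1878 and 1547 with IL-4/IL-6, 2317, 2022 and 2149 with IL-13, and 1639, 1531 and 1775 with IL-13/IL-6. The 3 IL-4 libraries lay just above control, and all 6 libraries with IL-6 lay below every control library. H2-D1 was 1.08-fold its control level with IL-4 (log2 0.11 ± 0.08, edgeR adjusted p = 0.203) and 1.07-fold with IL-13 (0.10 ± 0.08, adjusted p = 0.28), and neither passed the test, although the IL-4 value did with no filter on low counts (0.19, adjusted p = 0.016) and with the compared groups only (0.15, adjusted p = 0.000487). IL-6 lowered it by 0.36 ± 0.08 on the log2 scale beside IL-4 (edgeR adjusted p = 0.000884) and by 0.39 ± 0.08 beside IL-13 (adjusted p = 0.000701). It thereby also fell below control, to 0.84 with IL-4/IL-6 (adjusted p = 0.00651) and to 0.815 with IL-13/IL-6 (adjusted p = 0.00246, both edgeR).

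The FPKM ratio of H2-K1 to H2-D1 was 0.423 ± 0.0113 (SD, n = 3) in control, 0.583 ± 0.00754 with IL-4, 0.516 ± 0.0176 with IL-4/IL-6, 0.552 ± 0.0156 with IL-13 and 0.528 ± 0.00443 with IL-13/IL-6. Every cytokine-treated library had a higher ratio than every control library, also where H2-K1 itself was back at its control level. The 2 genes are close copies: 9.63% of the 50-base words of H2-K1 transcripts and 12.8% of those of H2-D1 also occur in other genes, and how reads from such stretches were counted is not given in the sources used here.

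B2m, the light chain shared by all class I molecules, was at 1520.5, 1712 and 1597 normalized CPM in control, 2333, 2179 and 2403 with IL-4, 1580.5, 2148 and 1495 with IL-4/IL-6, 2395, 2209 and 2046 with IL-13, and 1786, 1695 and 1869.9 with IL-13/IL-6. Its pattern was that of H2-K1, apart from IL-4/IL-6 replicate 2, which came close to the lowest IL-4 library. B2m rose 1.43-fold with IL-4 (log2 0.52 ± 0.11, edgeR adjusted p = 0.000347) and 1.38-fold with IL-13 (0.46 ± 0.11, adjusted p = 0.00113). IL-6 lowered it to 0.755 of the IL-4 level (log2 -0.40 ± 0.10, edgeR adjusted p = 0.00507) and to 0.805 of the IL-13 level (-0.31 ± 0.10, adjusted p = 0.0352). The last of these calls was lost when IL-13 replicate 1 (adjusted p = 0.0888), IL-13 replicate 2 (0.0609), IL-13/IL-6 replicate 1 (0.0664) or IL-13/IL-6 replicate 2 (0.107) was left out of the edgeR fit, and held without both libraries that stand apart (log2 -0.26 ± 0.06, adjusted p = 0.000563). Over control, B2m with IL-4/IL-6 was at 0.11 ± 0.10 and did not pass the test, but with offsets for GC content and length it passed as lower (-0.21 ± 0.06, adjusted p = 0.00411) and with no filter as higher (0.16 ± 0.07, adjusted p = 0.0442). With IL-13/IL-6 it was at 0.15 ± 0.10 over control and did not pass either, but passed as higher with no filter (0.22, edgeR adjusted p = 0.00356) and with the compared groups only (0.15, 0.0103), and was at -0.04 with the offsets. No 50-base word of B2m occurs in another gene.

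Among the transport genes, Tap1 and Tap2 code for the 2 subunits of the peptide transporter, and their levels did not move together. Tap1 was at 51.6, 52.6 and 50.2 normalized CPM in control, 76.2, 71.5 and 70.9 with IL-4, 45.4, 52.2 and 46.2 with IL-4/IL-6, 79.3, 79.6 and 81.7 with IL-13, and 64.7, 68.3 and 84.6 with IL-13/IL-6. The 3 IL-4/IL-6 libraries lay within or below the control range, whereas the 3 IL-13/IL-6 libraries lay above it, 1 of them above all IL-13 libraries. Tap1 rose 1.42-fold with IL-4 (log2 0.50 ± 0.09, edgeR adjusted p = 8.18e-05) and 1.56-fold with IL-13 (0.64 ± 0.09, adjusted p = 7.55e-06). Adding IL-6 to IL-4 brought it to 0.658 of the IL-4 level (log2 -0.60 ± 0.09, edgeR adjusted p = 2.61e-05), while beside IL-13 the change was -0.14 ± 0.09 (adjusted p = 0.26), and IL-13/IL-6 was 1.41-fold above control (adjusted p = 0.0001). Without IL-13/IL-6 replicate 3, its highest library, Tap1 passed as lower beside IL-13 too (-0.28 ± 0.08, edgeR adjusted p = 0.0128).

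Tap2 ranged from 20.9 to 30.3 normalized CPM over the 15 libraries, with means of 27.6 ± 0.80 (SD, n = 3) in control, 29.1 ± 1.08 with IL-4, 23.9 ± 3.12 with IL-4/IL-6, 26.2 ± 1.16 with IL-13 and 23.7 ± 3.70 with IL-13/IL-6. Against control it passed the test in no group, but was called lower with IL-4/IL-6 without IL-4/IL-6 replicate 2 (-0.29, edgeR adjusted p = 0.02), with IL-13/IL-6 without IL-13/IL-6 replicate 3 (-0.33, 0.00958), and in both groups with upper-quartile factors (-0.28, 0.025, and -0.27, 0.0333). IL-6 lowered it by 0.28 ± 0.11 on the log2 scale beside IL-4 (edgeR adjusted p = 0.0441), a call that was lost without IL-4 replicate 1 (adjusted p = 0.0568), IL-4 replicate 2 (0.0898), IL-4/IL-6 replicate 1 (0.0846) or IL-4/IL-6 replicate 3 (0.122), with offsets for GC content and length (-0.23, 0.0681), and with a replicate block (-0.28, 0.0608). Without both libraries that stand apart it was -0.40 ± 0.10 (edgeR adjusted p = 0.00196). The FPKM ratio of Tap1 to Tap2 was 1.29 ± 0.0664 (SD, n = 3) in control and 1.39 ± 0.093 with IL-4/IL-6, against 1.73 ± 0.106 with IL-4, 2.12 ± 0.0864 with IL-13 and 2.11 ± 0.128 with IL-13/IL-6. Tap2 shares 533 exonic bases with Gm15821 and 165 with Gm20496, both on the opposite strand, and the strand setting of the counting is not given in the sources used here, so reads of these genes cannot be told apart.

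Tapbp codes for tapasin, which bridges the transporter and empty class I molecules. It ranged from 223 to 249 normalized CPM in control, 222 to 254 with IL-4, 237 to 266 with IL-13 and 213 to 259 with IL-13/IL-6, ranges that overlap, and was at 179, 225 and 171 with IL-4/IL-6. The highest IL-4/IL-6 library, replicate 2, lay within the ranges of control and of IL-4. Tapbp was lower with IL-4/IL-6 than with IL-4 (log2 -0.33 ± 0.10, edgeR adjusted p = 0.0121) and than in control (-0.29 ± 0.10, adjusted p = 0.0126). The second call was lost without IL-4/IL-6 replicate 1 (adjusted p = 0.0691) or replicate 3 (0.0554). Without both libraries that stand apart these values were -0.47 ± 0.07 and -0.40 ± 0.07. Gm19412 on the opposite strand shares 904 of its exonic bases, and 23.2% of the 50-base words of Tapbp occur in other genes.

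**Figure D2:**
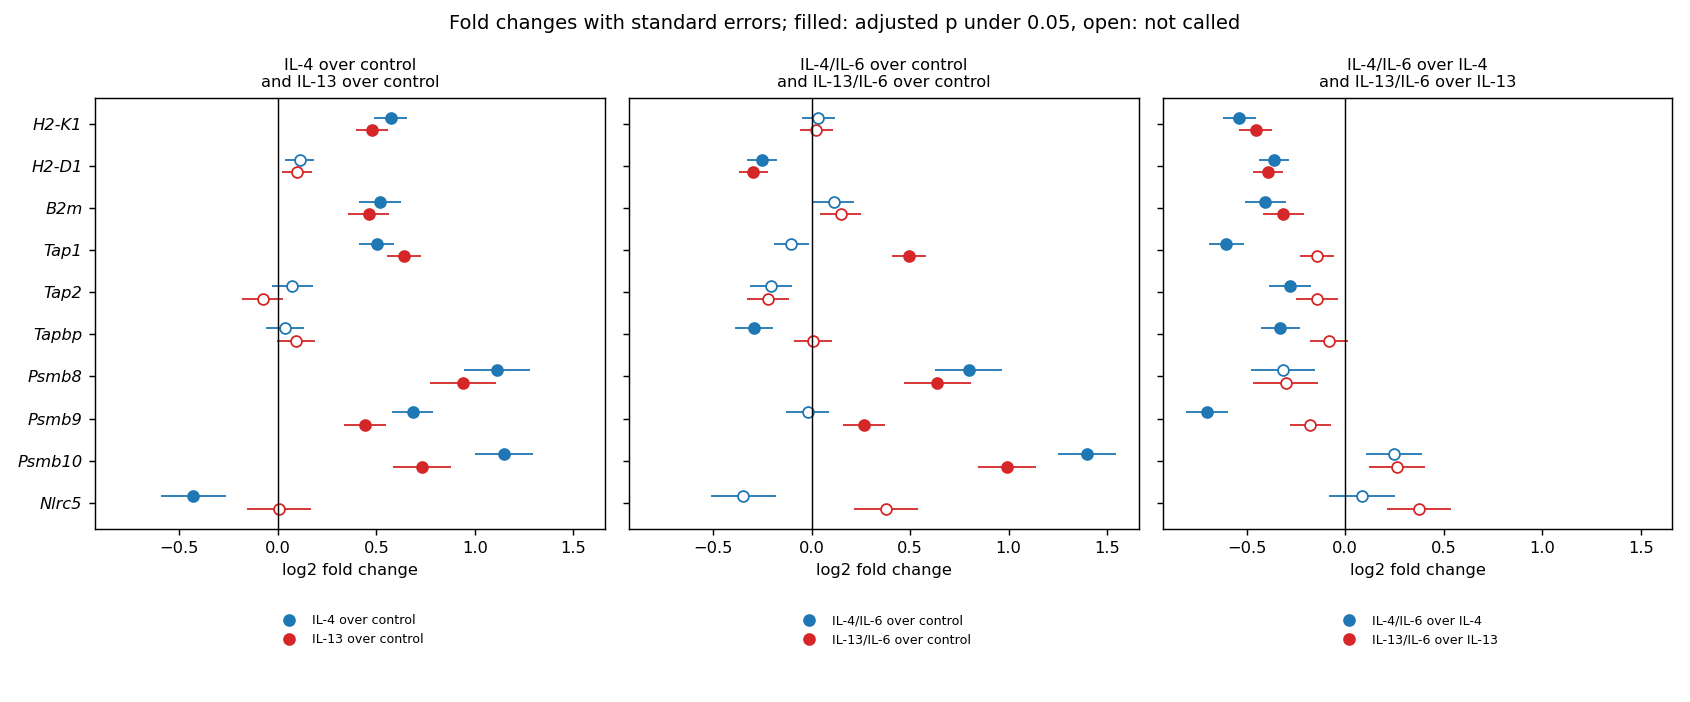
Log2 fold changes (x axis) of the 10 genes (rows) with standard errors as bars, IL-4 series in blue and IL-13 series in red; filled points passed an adjusted p of 0.05 and open points did not. Over control, 6 genes lie to the right with both cytokines; in the panel of IL-6 added, 7 blue and 3 red filled points lie left of 0, and Psmb10 lies right of 0 with both points open.

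The immunoproteasome subunits Psmb8 (beta5i), Psmb9 (beta1i) and Psmb10 (beta2i), which replace the constitutive Psmb5, Psmb6 and Psmb7, all 3 rose with IL-4 and with IL-13. When IL-6 was added to IL-4, Psmb9 fell and the other two did not pass the test, and when it was added to IL-13 none of the 3 did. Psmb8 was at 21.9, 21.7 and 24.6 normalized CPM in control, 46.8, 53.0 and 47.7 with IL-4, 34.1, 52.9 and 31.6 with IL-4/IL-6, 52.0, 38.3 and 40.6 with IL-13, and 37.0, 29.2 and 40.0 with IL-13/IL-6. Every cytokine-treated library lay above every control library. The folds over control were 2.16 with IL-4 (log2 1.11 ± 0.17, edgeR adjusted p = 1.86e-05), 1.92 with IL-13 (0.94 ± 0.17, adjusted p = 0.000133), 1.74 with IL-4/IL-6 (0.80 ± 0.17, adjusted p = 0.00046) and 1.56 with IL-13/IL-6 (0.64 ± 0.17, adjusted p = 0.00342). The step from IL-4 to IL-4/IL-6 (log2 -0.32 ± 0.16, edgeR adjusted p = 0.14) did not pass the test with all libraries, and was -0.60 ± 0.10 (adjusted p = 3.02e-05) without both libraries that stand apart and -0.43 (adjusted p = 0.033) with library totals. Gm20496 on the opposite strand shares 498 of the exonic bases of Psmb8.

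Psmb9 was at 28.3, 31.9 and 25.4 normalized CPM in control, 43.5, 44.8 and 49.2 with IL-4, 25.5, 31.6 and 27.4 with IL-4/IL-6, 39.4, 39.2 and 37.7 with IL-13, and 32.1, 31.2 and 39.6 with IL-13/IL-6. With IL-4/IL-6 it was within the control range, the only 1 of the 3 subunits to return there. Psmb9 rose 1.61-fold with IL-4 (log2 0.68 ± 0.11, edgeR adjusted p = 2.29e-05) and 1.36-fold with IL-13 (0.44 ± 0.11, adjusted p = 0.00174). With IL-6 it fell to 0.614 of the IL-4 level (log2 -0.70 ± 0.11, edgeR adjusted p = 3.78e-05) and was at 0.885 of the IL-13 level (-0.18 ± 0.11, adjusted p = 0.258). IL-13/IL-6 was 1.2-fold above control (edgeR adjusted p = 0.0385), a call lost without control replicate 1 (0.0831), control replicate 3 (0.17) or IL-13/IL-6 replicate 3 (0.163), and lost with upper-quartile factors (log2 0.22, adjusted p = 0.0826), library totals (0.17, 0.148), log2(FPKM + 1) (0.15, 0.155) and log2(FPKM + 0.1) (0.17, 0.153).

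Psmb10 was at 67.6, 73.9 and 63.9 normalized CPM in control, 153, 150.1 and 153 with IL-4, 156, 235 and 149 with IL-4/IL-6, 135, 102 and 104 with IL-13, and 142, 119 and 147 with IL-13/IL-6. It was above control in all 12 cytokine-treated libraries, and IL-6 did not bring it down. The folds over control were 2.22 with IL-4 (log2 1.15 ± 0.15, edgeR adjusted p = 2.67e-06), 2.63 with IL-4/IL-6 (1.40 ± 0.15, adjusted p = 1.99e-07), 1.66 with IL-13 (0.73 ± 0.15, adjusted p = 0.000376) and 1.99 with IL-13/IL-6 (0.99 ± 0.15, adjusted p = 1.47e-05). The effect of IL-6 was 0.25 ± 0.14 beside IL-4 (edgeR adjusted p = 0.188) and 0.26 ± 0.14 beside IL-13 (adjusted p = 0.212). Without both libraries that stand apart these became -0.0041 ± 0.07 (adjusted p = 0.976) and 0.40 ± 0.07 (adjusted p = 0.000109), so the second passed the test. With no filter on low counts both passed as higher (0.22, edgeR adjusted p = 0.0486, and 0.28, adjusted p = 0.0102). Without IL-13 replicate 1 alone the effect beside IL-13 passed too (0.40, edgeR adjusted p = 0.0467).

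Set against their constitutive partners as FPKM ratios, the inducible subunits gained less than their own folds. Psmb10 to Psmb7 was 2.51 ± 0.196 (SD, n = 3) in control, 3.75 ± 0.145 with IL-4, 3.86 ± 0.465 with IL-4/IL-6, 3.09 ± 0.183 with IL-13 and 3.36 ± 0.132 with IL-13/IL-6, and all 12 cytokine-treated libraries were above control. Psmb8 to Psmb5 was 0.221 ± 0.0275 in control, 0.262 ± 0.0264 with IL-4, 0.188 ± 0.0205 with IL-4/IL-6, 0.289 ± 0.017 with IL-13 and 0.213 ± 0.0261 with IL-13/IL-6. Psmb9 to Psmb6 was 0.0834 ± 0.00621 in control, 0.0975 ± 0.00254 with IL-4, 0.0639 ± 0.0121 with IL-4/IL-6, 0.105 ± 0.0143 with IL-13 and 0.0923 ± 0.0115 with IL-13/IL-6. In both of the last ratios the IL-4/IL-6 libraries did not overlap those of IL-4, and were the lowest group mean.

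**Figure D3:**
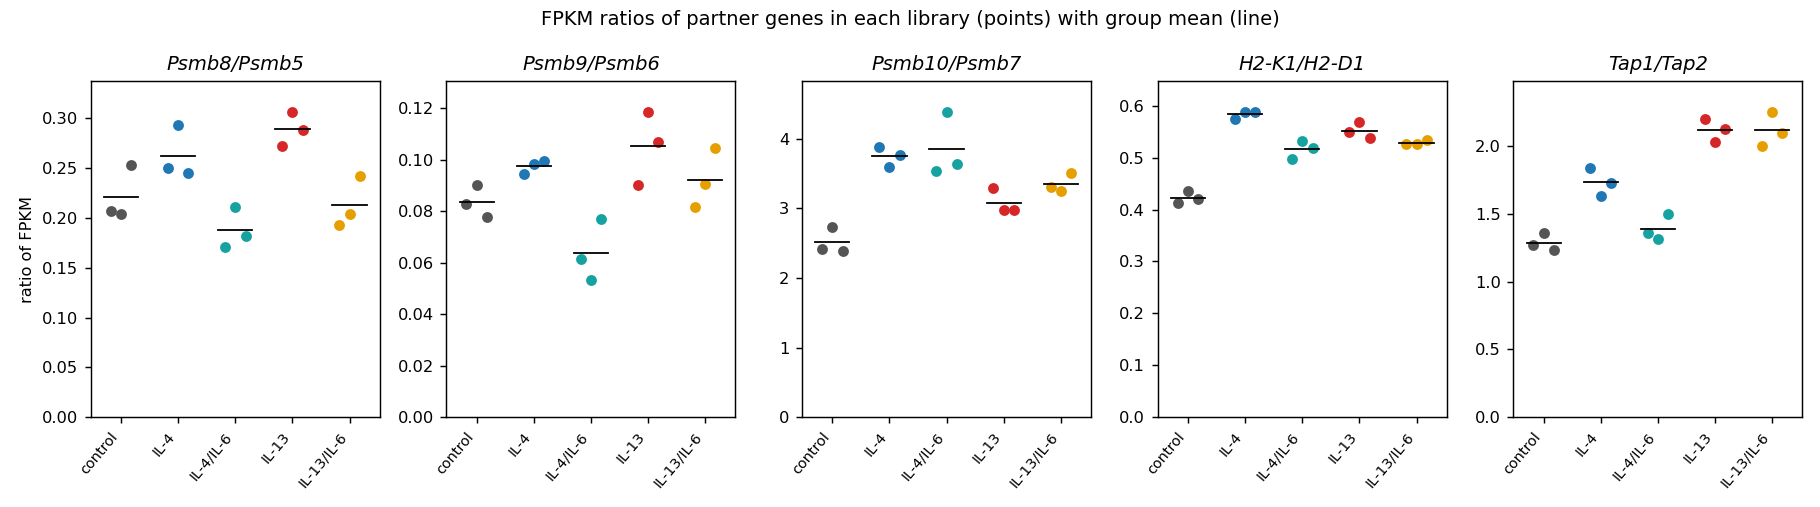
Ratio of FPKM (y axis, from 0) for 5 pairs of partner genes in each library (points, replicates 1 to 3 from left) with the group mean (line), by group on the x axis. Psmb10 to Psmb7 is above control in all cytokine-treated groups, and the IL-4/IL-6 means of Psmb8 to Psmb5 (0.188) and Psmb9 to Psmb6 (0.0639) are the lowest.

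The constitutive subunits themselves rose as well. Psmb5, Psmb6 and Psmb7 rose with IL-4 by 0.86 ± 0.15, 0.46 ± 0.14 and 0.57 ± 0.10 on the log2 scale (edgeR adjusted p = 7.27e-05, 0.00708 and 5.81e-05), and with IL-13 Psmb5 (0.56 ± 0.15) and Psmb7 (0.43 ± 0.10) rose while Psmb6 (0.13 ± 0.14) did not pass the test. Of 11 other subunits of the 20S core, 11 rose with IL-4 and 9 with IL-13, where 32.1% and 29.0% of all genes rose, with Psma4 (0.90 ± 0.12) and Psma6 (0.81 ± 0.14) changing most with IL-4. Of 9 activator and assembly genes, 8 rose and 1 fell with IL-4, and 7 rose and 1 fell with IL-13, against 35.9% and 31.1% of all genes that fell. The PA28 subunits Psme1 and Psme2, which open the proteasome for peptide release, rose by 0.81 ± 0.13 and 1.16 ± 0.15 with IL-4 and by 0.57 ± 0.13 and 0.85 ± 0.15 with IL-13, and the assembly chaperones Psmg1 and Psmg2 by 1.34 ± 0.15 and 1.29 ± 0.12 with IL-4. The FPKM ratio of Psme1 to Psme2 was 1.03 ± 0.0903 (SD, n = 3) in control and between 0.711 ± 0.0216 (IL-4/IL-6) and 0.842 ± 0.0321 (IL-13) in the cytokine-treated groups, none of which overlapped control. The median log2 fold change with IL-4 was 0.69 over the 11 core subunits and 1.11 over the 3 immunoproteasome subunits, against -0.05 over all 13938 genes.

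When IL-6 was added, these proteasome lists largely did not pass the test. Beside IL-4, 0 of the 3 constitutive subunits, 1 of the 11 core subunits (Psma3, 0.41 ± 0.11) and 3 of the 9 activator and assembly genes rose in edgeR's test, and none fell, with the same counts by DESeq2. At an unadjusted p under 0.05, 0, 3 and 3 were higher and none lower. Without both libraries that stand apart, 1 constitutive subunit, 3 core subunits and 3 activator or assembly genes were lower. Beside IL-13, 0 of 3, 0 of 11 and 1 of 9 rose and none fell in edgeR and DESeq2 alike, with 0, 2 and 1 higher at an unadjusted p under 0.05. Without those libraries 2 of 3, 7 of 11 and 3 of 9 rose. Of all genes, 20.7% rose and 18.7% fell beside IL-4 and 12.1% rose and 13.5% fell beside IL-13, and without those libraries 3025 of 14261 genes fell beside IL-4 and 2425 rose beside IL-13. With each library left out in turn, 1 to 5 core subunits were higher and 0 to 3 lower beside IL-4. In the same fits 0 to 2 activator or assembly genes were lower beside IL-4, and 0 to 3 core subunits higher beside IL-13. Psme4, which codes for the PA200 activator, was higher with IL-6 by 1.14 ± 0.09 beside IL-4 and by 0.44 ± 0.09 beside IL-13 (edgeR adjusted p = 2.46e-08 and 0.00145). Psmg1 rose by 0.55 ± 0.14 beside IL-4 (adjusted p = 0.00383).

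The difference between both IL-6 effects was tested as an interaction, the log2 effect of IL-6 beside IL-4 minus that beside IL-13. Since the doses in the IL-13 libraries are not stated, a difference of cytokine and a difference of dose cannot be told apart in it. Of the 10 genes, 2 were lower and none higher in edgeR's test (4.42% and 3.22% of all 13938 genes), with the same 2 and 0 by DESeq2 and at an unadjusted p under 0.05. They were the neighbours Tap1 (-0.46 ± 0.12, edgeR adjusted p = 0.0283) and Psmb9 (-0.53 ± 0.15, adjusted p = 0.0388). For H2-K1 (-0.08 ± 0.12), H2-D1 (0.03 ± 0.11) and B2m (-0.09 ± 0.15) the difference was smaller than its SE. Tap1 lost its call without IL-4 replicate 1 (edgeR adjusted p = 0.0722), IL-4/IL-6 replicate 1 (0.0696), IL-13 replicate 2 (0.0532) or IL-13/IL-6 replicate 3 (0.0568), and with the compared groups only (0.0527). Psmb9 lost its call when any of IL-4 replicates 2 and 3, IL-4/IL-6 replicates 1 and 3, IL-13 replicates 2 and 3 or IL-13/IL-6 replicate 3 was left out, with edgeR adjusted p from 0.0552 to 0.0994. A replicate block ended the call of Psmb9 as well (edgeR adjusted p = 0.0554). Without both libraries that stand apart, 7 of the 10 were lower, against 1290 of 14261 genes tested in that fit. Tap1 was then at -0.52 ± 0.12 and Psmb9 at -0.63 ± 0.14, and H2-K1 (-0.24 ± 0.08), B2m (-0.34 ± 0.08), Tapbp (-0.43 ± 0.10), Psmb8 (-0.43 ± 0.14) and Psmb10 (-0.40 ± 0.10) also passed. The libraries left out were the highest of their groups for 9 and 7 of the 10 genes. Leaving out a high library of either group lowers this difference, so these added calls follow in part from that choice.

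Against control, the groups with IL-6 kept fewer of the rises. With IL-4/IL-6, Psmb8 and Psmb10 were higher and H2-D1 and Tapbp lower (2 and 2 of 10, where 35.4% and 37.5% of all genes were called). With IL-13/IL-6, Tap1, Psmb8, Psmb9 and Psmb10 were higher and H2-D1 lower (4 and 1 of 10, against 31.9% and 32.1% of all genes). In the fit that leaves out both libraries that stand apart, IL-4/IL-6 lowered H2-D1 by 0.30 ± 0.06 and Tap2 by 0.29 ± 0.10 on the log2 scale below control, the latter then passing the test (edgeR adjusted p = 0.0135). In the same fit the IL-6 steps were -0.66 ± 0.06 beside IL-4 and -0.41 ± 0.06 beside IL-13 for H2-K1, -0.45 ± 0.06 and -0.35 ± 0.05 for H2-D1, -0.68 ± 0.09 and -0.16 ± 0.08 for Tap1, and -0.81 ± 0.10 and -0.17 ± 0.10 for Psmb9. B2m beside IL-4 was at -0.60 ± 0.06. The median log2 fold change of the 10 genes was 0.51 with IL-4, 0.45 with IL-13, -0.06 with IL-4/IL-6 and 0.21 with IL-13/IL-6, and that of all genes -0.05, -0.02, -0.05 and -0.01.

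Nlrc5 codes for the transactivator of class I genes, which is brought to class I promoters by RFX, CREB/ATF and NF-Y proteins. It was at 41.2, 40.2 and 44.3 normalized CPM in control, 32.5, 34.1 and 26.7 with IL-4, 35.2, 24.7 and 39.0 with IL-4/IL-6, 33.7, 48.5 and 43.9 with IL-13, and 44.8, 53.4 and 65.1 with IL-13/IL-6. Libraries with IL-4 or with IL-4/IL-6 lay below the control range and those with IL-13/IL-6 above it. Nlrc5 fell to 0.742 of control with IL-4 (log2 -0.43 ± 0.17, edgeR adjusted p = 0.0294), where H2-K1 and B2m rose. That call was lost without control replicate 1 (adjusted p = 0.0618), control replicate 3 (0.0913), IL-4 replicate 1 (0.067) or IL-4 replicate 3 (0.188), and with offsets for GC content and gene length (log2 -0.25, adjusted p = 0.095). With IL-13 it was at its control level (0.00 ± 0.16), and with IL-13/IL-6 it was 1.30-fold higher (0.38 ± 0.16, edgeR adjusted p = 0.0504) and missed the threshold. That value passed with no filter on low counts (0.45, adjusted p = 2.14e-05), with the compared groups only (0.38, 0.00232), with offsets for GC content and length (0.50, 0.00187) and without IL-13/IL-6 replicate 1 (0.53, 0.0142). With IL-4/IL-6 it passed as lower than control without IL-4/IL-6 replicate 3 (-0.49, edgeR adjusted p = 0.0171). With both libraries that stand apart left out, Nlrc5 was at 0.18 ± 0.11 with IL-13 and at -0.15 ± 0.12 with IL-4/IL-6 (with all libraries -0.35 ± 0.17) over control, and its IL-6 steps were 0.24 ± 0.12 beside IL-4 (with all libraries 0.08 ± 0.17) and 0.23 ± 0.11 beside IL-13 (with all libraries 0.37 ± 0.16), none of which passed the test.

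Of 18 other regulators listed, 7 rose and 7 fell with IL-4, 7 rose and 6 fell with IL-13, 3 rose and 6 fell when IL-6 was added to IL-4, and 3 rose and 3 fell when it was added to IL-13. With IL-4 and IL-13 alone these counts are near the shares of all genes, 32.1% higher and 35.9% lower with IL-4 and 29.0% and 31.1% with IL-13. In the IL-6 steps 20.7% of all genes rose and 18.7% fell beside IL-4, and 12.1% rose and 13.5% fell beside IL-13, so the counts beside IL-13 are near background as well. The last 3 rises were 0 with library totals and 1 to 2 with each library left out in turn. Ciita, the class II transactivator and relative of Nlrc5, fell from 13.3 ± 0.542 normalized CPM (SD, n = 3) in control to 2.93 ± 0.367 with IL-4 and 0.404 ± 0.0607 with IL-4/IL-6 (log2 -2.83 ± 0.33 for the IL-6 step, edgeR adjusted p = 1.96e-06). It was at 1.16 ± 0.482 with IL-13 and 0.258 ± 0.202 with IL-13/IL-6 (-2.11 ± 0.41, adjusted p = 0.000853). Rfx5, a subunit of the RFX complex, fell with IL-4 by 1.46 ± 0.15 on the log2 scale.

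Of 25 other class I heavy chain genes on the list, 15 passed the filter on low counts. IL-6 lowered 10 and raised 2 of the 15 beside IL-4, and lowered 4 and raised 2 beside IL-13. Of all genes, 18.7% fell and 20.7% rose beside IL-4, and 13.5% fell and 12.1% rose beside IL-13, and the share of the list that rose is near that. The first count dropped to 5 without IL-4/IL-6 replicate 1. H2-Q5, a Qa-region gene, fell from 5.30 ± 1.00 to 1.91 ± 0.268 normalized CPM (log2 -1.47 ± 0.28, edgeR adjusted p = 0.000364), and H2-Q6 fell from 5.29 ± 0.601 with IL-13 to 2.1 ± 0.877 with IL-13/IL-6 (-1.33 ± 0.30, adjusted p = 0.00275). Reads of these near copies cannot be placed with certainty. H2-Q5 had 23 to 111 counts per library. Fcgrt, whose product pairs with beta-2-microglobulin but carries IgG and albumin in place of peptides, went the other way, from 19.3 ± 2.78 to 317 ± 61.3 beside IL-4 (4.04 ± 0.14, edgeR adjusted p = 3.36e-13) and from 14.7 ± 1.75 to 151 ± 3.99 beside IL-13 (3.37 ± 0.14, adjusted p = 9.13e-12), against 61.0 ± 5.95 in control. Over control with IL-4, 6 rose and 5 fell, near the 32.1% and 35.9% of all genes, with H2-K2 (-2.01 ± 0.17) and Mr1 (-1.96 ± 0.14), which presents bacterial metabolites, the largest changes.

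Of 8 further genes of peptide loading and trimming, 4 rose and 0 fell when IL-6 was added to IL-4, and 6 rose and 0 fell when it was added to IL-13 (edgeR and DESeq2 alike, with 0 lower at an unadjusted p under 0.05), against 20.7% and 12.1% of all genes that rose and 18.7% and 13.5% that fell. The first count was 2 with library totals or upper-quartile factors in place of TMM, and 2 without IL-4 replicate 2, IL-4 replicate 3 or IL-4/IL-6 replicate 1. The second was 4 with library totals and 4 to 5 with each library left out in turn, and 1 gene was lower without both libraries that stand apart. The chaperone Hspa5 (BiP) rose by 0.58 ± 0.07 and 0.67 ± 0.07, and Erap1, which trims peptides in the endoplasmic reticulum, by 0.55 ± 0.08 and 0.29 ± 0.08. Erap1 and Hspa5 thus rose in the comparisons in which H2-K1, H2-D1 and B2m fell. Over control with IL-4, calreticulin (Calr) rose by 0.71 ± 0.06 and the aminopeptidase gene Lnpep fell by 2.42 ± 0.30 on the log2 scale, within 4 genes that rose and 3 that fell, near the 32.1% and 35.9% of all genes. The latter were 1 to 2 with each library left out in turn.

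**Figure D4:**
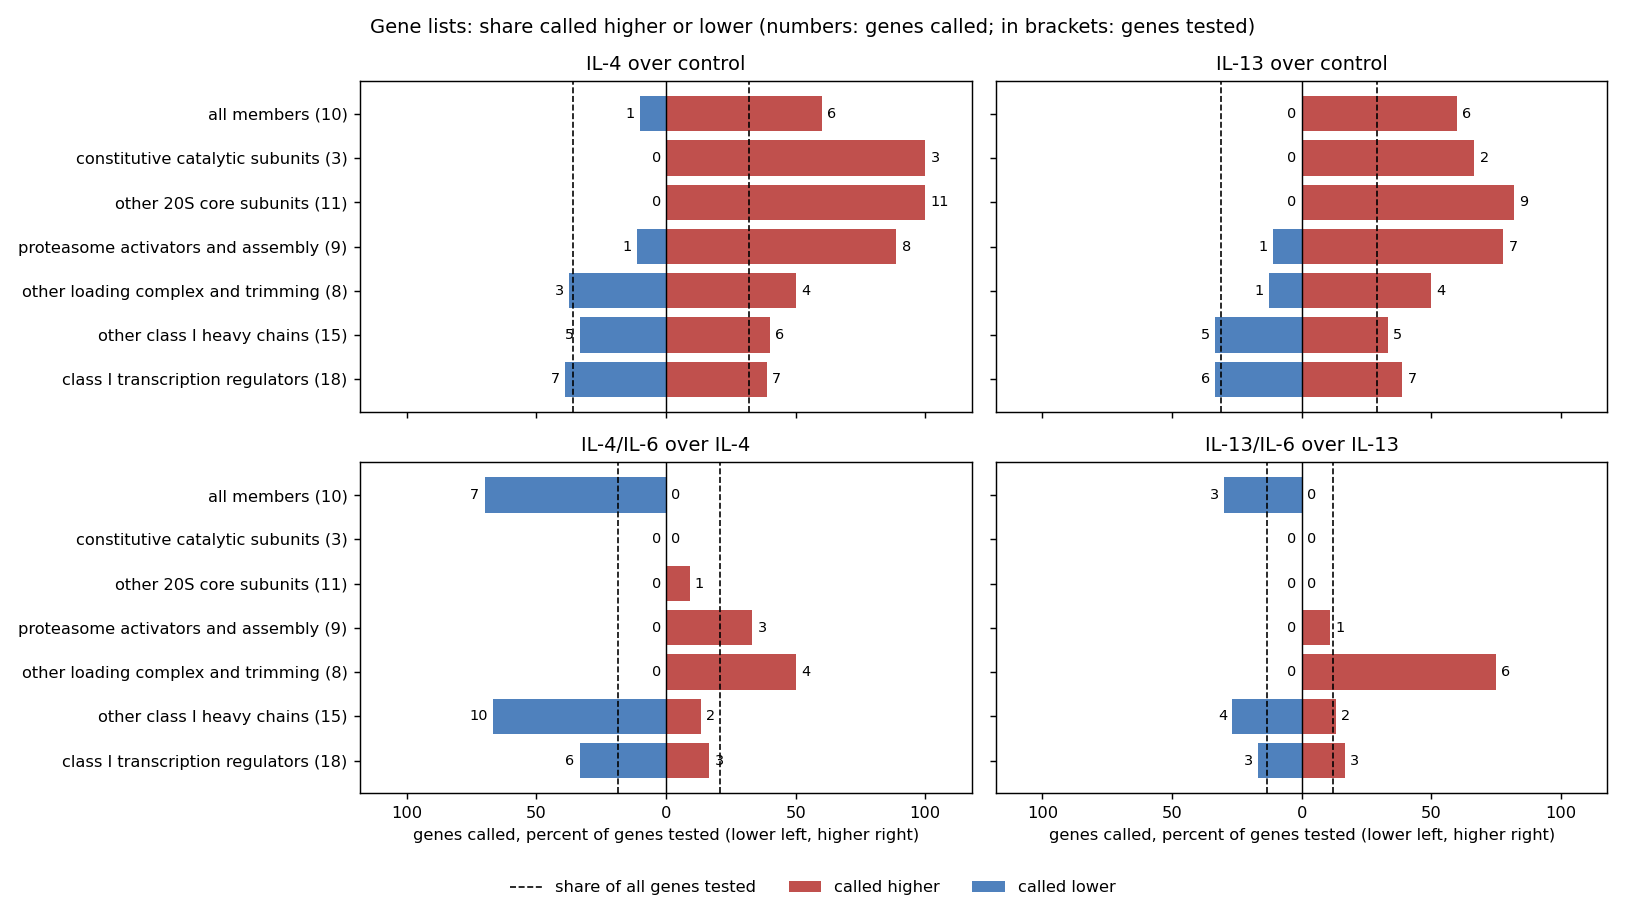
Share of each gene list called higher (red, to the right) or lower (blue, to the left) in 4 comparisons, as a percent of the genes tested (x axis); numbers at the bars are genes called, numbers in brackets genes tested, and dashed lines mark the share of all 13938 genes. Proteasome lists reach 11 of 11 with IL-4, and with IL-6 added the leftward bars are those of the 10 genes described here ("all members", 7 and 3), other heavy chains (10 and 4) and regulators (6 and 3).

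The scaling sets part of the balance in the IL-6 steps. Of all genes called when IL-6 was added to IL-4, 52.6% were higher with TMM factors and 38.0% with library totals, and for IL-6 added to IL-13 the shares were 47.3% and 35.3%. For the interaction 42.2% of the calls were higher with TMM and 31.7% with upper-quartile factors. Library totals moved the median log2 fold change of all genes in IL-4/IL-6 over control from -0.05 to -0.19. With library totals Tap1 (-0.25), Tap2 (-0.36) and Nlrc5 (-0.48) also passed as lower there, each below its value with TMM factors (-0.10, -0.21 and -0.35) by about as much as the median of all genes. No fold change of the 10 genes that is called here changed sign under any scaling, filter, tool, offset or library left out.

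Across the 15 libraries, as a description of log2 normalized CPM values that share groups and library effects, H2-K1 ran closest to B2m among the 10 genes (Pearson r = 0.95), and Psmb9 to H2-K1 (0.89). Psmb8 and Psmb10 had r = 0.80, and Psmb8 and B2m 0.83. Tap1 ran closest to its neighbour Psmb9 (0.83). Nlrc5 reached no more than 0.26, with Tap1, and was below 0 with H2-K1 (-0.43), B2m (-0.43), Psmb8 (-0.46) and Psmb10 (-0.45). Among 12049 genes with a mean of at least 1 CPM, the closest gene outside the list was Akip1 for H2-K1 (0.97), Mgat4b for H2-D1 (0.97), Anapc11 for B2m (0.95), Oasl2 for Tap1 (0.97), Tmem143 for Tap2 (0.84), Dok1 for Tapbp (0.95), Sh3bgrl3 for Psmb8 (0.98), Cenps for Psmb9 (0.96), Eif3g for Psmb10 (0.99) and Btaf1 for Nlrc5 (0.95).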

How the data were processed

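RNA of 15 BMDM libraries was sequenced, and the authors deposited whole-number gene counts together with FPKM values per library. The submitters' processing notes name CASAVA, Bowtie2 2.2.3, HISAT2 2.1.0, TopHat2, DESeq2 and build GRCm38, without roles. The read counter, annotation, read length and strand setting are not given in the sources used here. Libraries were grouped by title (3 per group), and no value column was left unmatched. Symbols, positions and overlaps came from GENCODE M21, and start windows from RefSeq.

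Counts were filtered with filterByExpr (minimum count 10) and fitted together for all 15 libraries with edgeR 4.0.16 (R 4.3.3), TMM factors and the quasi-likelihood F-test, with Benjamini-Hochberg adjustment over 13938 genes and calls at an adjusted p under 0.05. Normalized CPM used the same factors. FPKM, which the authors normalized to length and depth, were used to compare genes and for ratios. On simulated counts for IL-4/IL-6 against IL-4 (13938 genes), 65 of 100 genes changed by 0.5 and 96 of 100 changed by 1 on the log2 scale were called, with 15 false calls. The simulated counts held no library that stands apart and far fewer changed genes than the data. They check the fit and do not give its power or false calls on the data.

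The 10 genes and the lists (74 pathway genes, 72 matched to an identifier) were chosen with earlier results of these data known. Named are the 10 genes, Psmb5, Psmb6, Psmb7, Psme1, Psme2, per list the 2 called genes with the largest change in IL-4 over control and in both IL-6 steps, and for each of the 10 the gene with the highest r. Not every item that this rule names is reported here. Alternatives were other scalings, DESeq2 1.42.0, other filters, limma 3.58.1 on log2(FPKM + 1) and log2(FPKM + 0.1), a replicate block, the compared groups only and each library left out. Offsets for GC content and length, and leaving out IL-4/IL-6 replicate 2 with IL-13 replicate 1, were added after seeing the data. No 2 libraries of a group agreed within sampling noise.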

Additional observations from a re-analysis of the deposited data

Results flagged for a closer look

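The effect of IL-6 differed between the IL-4 and IL-13 backgrounds for 2 of the 10 genes, by edgeR's quasi-likelihood test of the interaction, where 4.42% of all genes were called lower and 3.22% higher. Without both libraries that stand apart 7 of the 10 were lower, against 1290 of 14261 genes, with 1224 higher. Those libraries, IL-4/IL-6 replicate 2 and IL-13 replicate 1, were the highest of their groups for 9 and 7 of the 10. Leaving out a high library of either group lowers this difference, and the choice was made after seeing the data. That count is therefore no separate support for the flagged result. In the fit of all libraries Tap1 differed by -0.46 on the log2 scale (IL-4 minus IL-13). Psmb9 differed by -0.53 on the same scale. Beside IL-4 both genes fell (-0.60 for Tap1, -0.70 for Psmb9), and beside IL-13 neither passed the test (-0.14, adjusted p = 0.26, and -0.18, adjusted p = 0.258). The call of Tap1 was lost without any 1 of 4 libraries (adjusted p up to 0.0722) and that of Psmb9 without any 1 of 7 (up to 0.0994). The compared groups only ended that of Tap1 (0.0527) and the replicate block that of Psmb9 (0.0554) as well. Both genes share 212 exonic bases on opposite strands, whose part in the values was not tested. The doses of the IL-13 libraries are not stated, so cytokine and dose cannot be told apart in this difference. Single outlying values were not tested in groups of 3 libraries.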

How the results depend on the processing

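Over 1230 alternative values of the 10 genes' fold changes, 1067 kept their direction and side of the threshold, 37 lost and 49 gained a call, 77 changed sign without having been called in the reported fit, and 0 called values reversed. Members lower in IL-4 over control numbered 1, and 0 with GC and length offsets or 0 to 1 with each library left out. In IL-4/IL-6 over control 2 were lower, but 4 with upper-quartile factors, 5 with library totals, 5 with log2(FPKM + 1), 5 with log2(FPKM + 0.1), and 1 to 3 with each library left out, while of all 13938 genes 5222 were lower, 5619 with upper-quartile factors and 6029 with library totals. In IL-13/IL-6 over control 1 was lower, but 2 with upper-quartile factors, 2 with library totals, 2 and 2 on both FPKM scales, and 1 to 2 with each library left out. In IL-4/IL-6 against IL-4 none was higher, but 1 with no filter, and 7 were lower, 6 to 8 with each library left out. In IL-13/IL-6 over IL-13 none was higher, but 2 with no filter, 1 with GC and length offsets, 1 without both libraries that stand apart, and 0 to 1 with each library left out. For the interaction 2 were lower, but 1 with the replicate block, 1 with the compared groups only, 7 without both libraries that stand apart, and 0 to 3 with each library left out; over all genes that fit called 1224 higher and 1290 lower, against 449 and 616, and 293 were higher without IL-4 replicate 2. The cause was not tested.

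The replicate block did not rest on pairing: same-numbered libraries correlated between -0.28 and 0.16, in none of 10 group pairs were all 3 over 0.1, and in 14 of 60 comparisons of a library with another group it correlated best with its own number. Besides the interaction (1 for 2, Psmb9 lost), the block ended the call of Tap2 in IL-4/IL-6 against IL-4 (adjusted p = 0.0608) and no other of the 10 genes' calls. The standard errors did not follow depth alone: that of B2m, with the highest FPKM, was about as large as that of Tap2.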
